A study of Canis lupus familiaris with 12 samples.

Results

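Control mitral valve was set against control left ventricle in dogs without degenerative mitral valve disease (DMVD), gene by gene, from the group values in the authors' deposited tables. Of the 24223 genes listed for each tissue, 13333 had the status OK in both tables and make up the comparison. A ratio could be formed for the 13203 that were above 0 in both tissues. The control ventricle group held 4 libraries: 1 Beagle aged 8 years and 3 dogs of Hound mix aged 3 years. The control valve group held 3 libraries, 1 from a Beagle aged 8 years and 2 from dogs of Hound mix aged 3 years, which carry the same numbers, breeds and ages as 3 of the ventricle libraries. Values from dogs with DMVD are given beside the control values. The DMVD ventricle group held 2 libraries, 1 Jack Russell Terrier (aged 5 years) and 1 Pomeranian (aged 9 years). The DMVD valve group held 3, 1 Pomeranian (aged 9 years) and 2 Beagles (aged 16 and 17 years). These 7 control and 5 DMVD libraries are the 12 libraries of the series.

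Each value is a single FPKM for a group (sequenced fragments scaled to transcript length and library size), with no value per dog, so the spread between dogs could not be measured and no test was made. The tables were normalised separately. Ratios are log2 of valve over ventricle after subtracting 0.31, the median over the 11489 genes above 1 FPKM in both tissues. The figure after ± is not an SD. It is an upper bound on 1 standard error of the ratio under the authors' model, from their test statistics in both tables, called the error ceiling here. Its median was 0.79 over all genes with a ratio, and 2863 of the 13203 ratios were larger than their own ceiling, so a ratio past it is no call. A gene is called higher or lower when the recentred ratio reached 4-fold. The samples are bulk tissue, in which fewer cells of a type and less RNA per cell cannot be told apart.

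The mitral valve is a thin leaflet of collagen, proteoglycan and elastic layers, made and kept by valve interstitial cells and covered by endothelium. It is anchored at the annulus, where atrial muscle, ventricular muscle and fibrous tissue meet, and atrial muscle can run into the base of the leaflet. The left ventricle is mostly working muscle by mass, rich in contractile proteins and mitochondria. Atrial and ventricular muscle share most sarcomere proteins but use different light chains, natriuretic peptides and potassium channels.

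In the control valve 466 genes were at least 4-fold higher than in the control ventricle, 3.53% of genes with a ratio, and 106 were at least 4-fold lower, 0.803%. At 2-fold the counts were 1547 (11.7%) and 936 (7.09%). The median ratio was 0.04, with quartiles of -0.39 and 0.49, the 5th percentile at -1.14 and the 95th at 1.70. Among the genes higher in the valve, 319 had a usable symbol, 46 were small RNAs or RNA families and 343 reached 5 FPKM in the valve or the ventricle. Among those lower, 39 had a symbol, 21 were small RNAs or RNA families and 12 lay on the mitochondrial chromosome. The ratio exceeded 2 times its error ceiling in 320 of the genes called higher and in 36 of those called lower. The list of genes higher in the valve was the longer one. The shares of 3.53% higher and 0.803% lower are those to set beside each count of called list members below. Beside counts at 2-fold the shares are 11.7% higher and 7.09% lower.

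**Figure D1:**
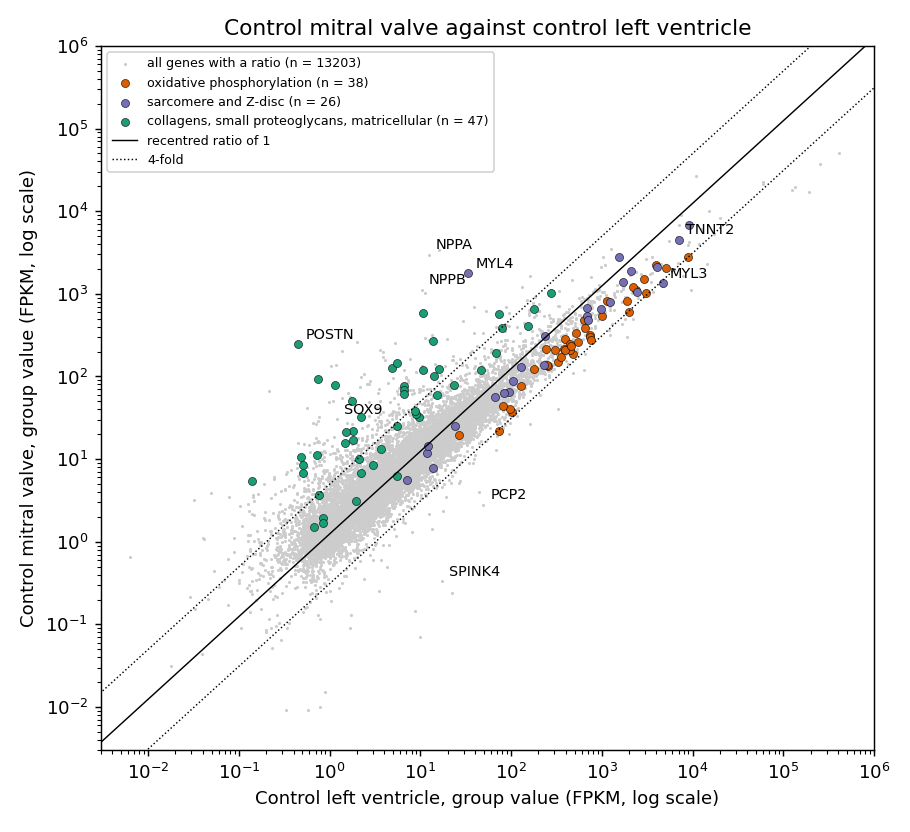
Control valve FPKM (vertical, log scale) against control ventricle FPKM (horizontal, log scale) for the 13203 genes with a ratio, with 3 groups of listed genes coloured. The solid line is a recentred ratio of 1 and the dotted lines are 4-fold. Nearly all matrix genes lie above the solid line and many above the upper dotted line, oxidative phosphorylation genes lie below the solid line, and 23 of the 26 sarcomere genes lie below it, with MYL4 above the upper dotted line and MYL3 under the lower one.

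The direction of the ratio varied with the level of the gene. Over the 88 genes with a geometric mean of 1000 FPKM or more, the median ratio was -1.23. It was -0.38 over 634 genes of 100 to 1000 FPKM, -0.14 over 3918 genes of 10 to 100 FPKM, 0.14 over 7528 genes of 1 to 10 FPKM and 0.21 over 1035 genes under 1 FPKM. In the top class 14 genes were called lower and 0 higher, while in the class of 1 to 10 FPKM 255 were called higher and 29 lower. The genes of highest FPKM in the pair of tissues were thus mainly lower in the valve. The top class takes in mitochondrial chromosome rows, such as the 1 at 416027 FPKM in the ventricle. Such rows made up 12 of all 106 genes called lower, and most are short, which raises FPKM. The class of 1 to 10 FPKM also holds most of the genes, and the share of its genes called higher is near that over all genes.

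**Figure D2:**
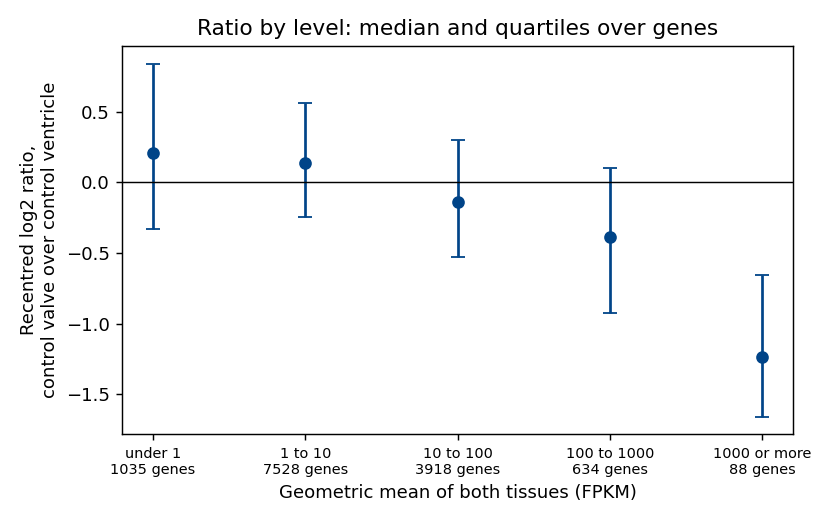
Recentred log2 ratio of control valve over control ventricle (vertical) in 5 classes of level (horizontal, geometric mean FPKM of both tissues). Points are medians over genes and bars the quartiles over genes, not an error of the mean. The medians go from 0.21 in the lowest class to -1.23 in the highest.

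Heart muscle transcripts were abundant in the control valve. Sarcomere and Z-disc genes, the contractile machinery of muscle, had a median ratio of -0.66 over 26 members with a ratio, against 0.04 over all genes, and the median member stood at 78.8% of its ventricle FPKM as deposited. Only 1 of the 26 was called lower and 1 higher, against 0.803% and 3.53% of all genes. TNNT2, the troponin subunit that binds tropomyosin, was at 7051 FPKM in the ventricle and 4523 in the valve (ratio -0.96 ± 2.69). TNNI3, the inhibitory troponin, was at 4094 and 2143 FPKM (-1.25 ± 1.33). ACTC1, cardiac actin, was at 1565 FPKM in the ventricle and 2785 in the valve (0.52 ± 2.22). MB, the oxygen store myoglobin, was at 8868 and 3912 FPKM (-1.50 ± 1.41). Of these 4 genes, ACTC1 alone was higher in the valve. MYBPC3, a thick filament regulator, was at 972 and 649.5 FPKM (-0.90 ± 1.56). Muscle genes were also among the highest of the valve: TNNT2, MB, ACTC1, ACTA1 and TNNI3 were among its 15 genes of highest FPKM with a symbol and an unshared locus, as was the hormone gene NPPA. By these markers the samples labelled mitral valve held muscle as well as leaflet transcripts.

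Genes named for atrial muscle were higher in the valve. Of 15 matched members of that list, 11 had a ratio, with a median of 1.63, and 5 were called higher and 0 lower. NPPA, which encodes atrial natriuretic peptide (chromosome 2, 84406205 to 84408369, CanFam3.1), was at 12.4 FPKM in the ventricle and 2984 in the valve (7.60 ± 2.0). NPPB, its neighbour, which encodes the B-type peptide (chromosome 2, 84396073 to 84397286), was at 10.3 and 1120.4 FPKM (6.45 ± 1.24). MYL4, the atrial essential light chain, was at 33.5 and 1792 FPKM (5.43 ± 1.80), but its listed locus is shared with another gene. PAM, a peptide-processing enzyme of atrial granules, was at 68.6 and 393 FPKM (2.21 ± 2.13). NR2F2, a transcription factor of atrial identity that also marks veins, was at 2.44 and 6.9 FPKM (1.18 ± 0.91). The remaining called member, COMP, is a matrix glycoprotein rather than a muscle gene and is described with the matrix. KCNJ5 (0.13 ± 0.65) and KCNA5 (-0.39 ± 0.89), which encode potassium channel subunits with atrial roles, did not follow NPPA.

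Ventricular muscle genes went the other way and all 9 with a ratio were below 0, with a median of -1.59. Of these, 6 were at least 2-fold lower, against 7.09% of all genes. MYL3, the ventricular essential light chain (chromosome 20, 41941315 to 41947260), was at 4676 FPKM in the ventricle and 1335 in the valve (-2.12 ± 0.96), the 1 member called lower. IRX4, a transcription factor of ventricular identity, was at 5.46 and 1.86 FPKM (-1.87 ± 2.79). HEY2, a Notch target of compact ventricular muscle, was at 30.4 and 10.9 FPKM (-1.80 ± 0.91). KCNJ2, the inward rectifier channel of ventricular muscle, was at 12.1 and 4.34 FPKM (-1.80 ± 1.31). LRRC39, a sarcomeric M-band protein outside this list and named for its low ratio, was at 486 and 110.0 FPKM (-2.46 ± 0.92). PLN, the phospholamban brake on the calcium pump, was at 19863 and 8204 FPKM (-1.59 ± 0.70). The control valve thus held less than the ventricle of each of the 9 ventricular genes with a ratio, but far from none of MYL3. At 1335 FPKM MYL3 stood near MYL4 at 1792.

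Several ventricular genes, and LRRC39, were far lower in DMVD valve than in control valve. In DMVD valve MYL3 was at 36.6 FPKM, IRX4 at 0.0135, KCNJ2 at 0.162 and LRRC39 at 12.9. DMVD ventricle held MYL3 at 4451 FPKM, IRX4 at 3.18, KCNJ2 at 5.28 and LRRC39 at 464. Other genes of the list were not so low: PLN was at 3791 FPKM in DMVD valve and 18413 in DMVD ventricle, and MYH7 at 1279.8 in DMVD valve. The MYH7 values of the ventricle carry a mark described below. The atrial genes stayed at a similar level, with NPPA at 2878 FPKM, NPPB at 1776 and MYL4 at 1631 in DMVD valve. TNNI3 was at 683 FPKM and TNNT2 at 1846 in DMVD valve. The median ratio of the ventricular list was -2.62 between the DMVD groups and -1.59 between the control groups. How much of the muscle in each valve sample came from the attached atrial or ventricular wall was not tested.

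**Figure D3:**
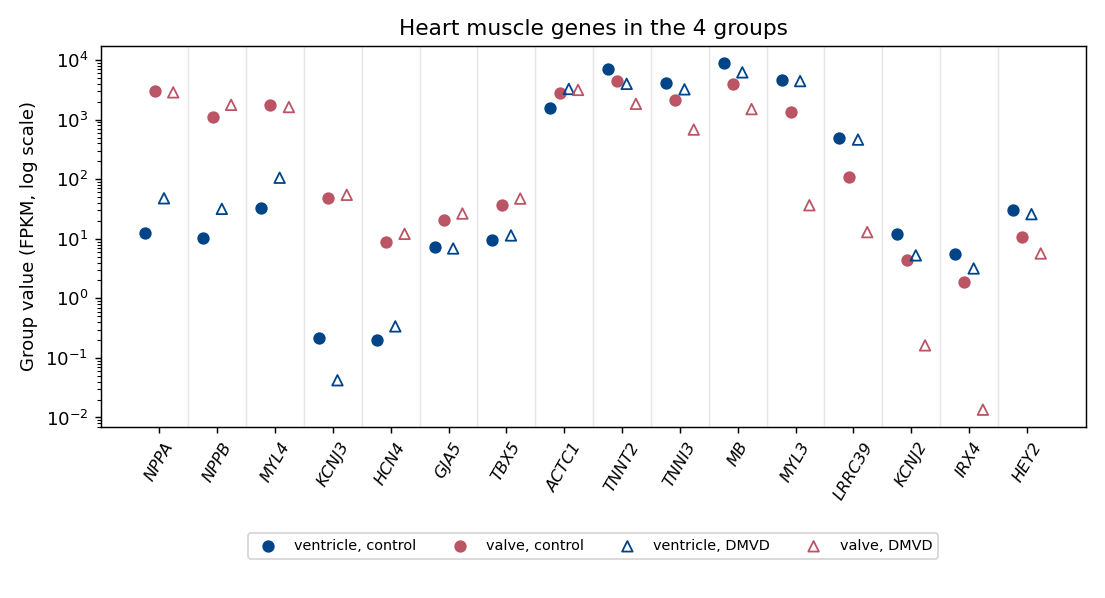
FPKM (vertical, log scale) of 16 heart muscle genes in the 4 groups, 1 point per group: circles are control, triangles DMVD, blue ventricle and red valve. NPPA, NPPB and MYL4 are high in both valve groups, while MYL3 is at 1335 FPKM in control valve and 36.6 in DMVD valve.

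MYH7 and CKM need a separate reading. MYH7, the beta myosin heavy chain, and CKM, muscle creatine kinase, are listed at 0 in the control ventricle with the status HIDATA. In gene tables of this layout that mark stands for a locus with too many fragments to estimate, so the 0 is not a low level. They were at 3068 and 2411 FPKM in the control valve. In DMVD ventricle MYH7 was at 1637 and CKM at 6855 FPKM, but the mark covers both ventricle groups, so these levels are uncertain too. No ratio was formed for either. The mark stood on 24 genes of the ventricle table and 6 of the valve table, among them the mitochondrial gene COX3 in both.

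Calcium cycling and excitation genes had a median ratio of -0.58 over 19 members, 18 of them below 0, with 0 called in either direction. ATP2A2, the calcium pump of the sarcoplasmic reticulum, was at 593 and 687 FPKM (-0.10 ± 1.49), and CASQ2, the calcium store protein, at 221 and 209.7 FPKM (-0.39 ± 0.80). GJA1, the main ventricular gap junction protein, was at 164 FPKM in the ventricle and 76.9 in the valve (-1.41 ± 0.65). GJA5, the gap junction protein of atrial and fast-conducting muscle, was at 7.15 and 21.1 FPKM (1.24 ± 0.66). This pair of connexins thus had ratios of opposite sign.

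Energy genes were lower in the valve in every listed pathway of mitochondria. All 38 nuclear oxidative phosphorylation subunits with a ratio were below 0, with a median of -1.23. Of these, 30 were at least 2-fold lower, against 7.09% of all genes, and 2 were at least 4-fold lower. NDUFB3, a complex I subunit, was at 1971 FPKM in the ventricle and 609.8 in the valve (-2.01 ± 0.69). COX7B, of complex IV, was at 8800.0 and 2775 FPKM (-1.98 ± 0.75). UQCRQ, of complex III, was at 5094 and 2039 FPKM (-1.64 ± 0.72), and ATP5J, of the ATP synthase, at 2401 and 1104 FPKM (-1.44 ± 0.70). The members ranged from -2.06 to -0.51, and COX8A, also of complex IV, was nearest to 0 (-0.51 ± 0.62).

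The fuel pathways were lower by less than the respiratory chain. Fatty acid oxidation genes had a median of -0.94 over 24 members, 7 of them at least 2-fold lower, against 7.09% of all genes. FABP3, the heart fatty acid carrier, was at 3480.4 FPKM in the ventricle and 1386 in the valve (-1.64 ± 0.80). CD36, the fatty acid transporter, was at 189.6 and 101 FPKM (-1.22 ± 0.73). CPT1A, the non-muscle isoform of the transferase that admits fatty acids to mitochondria, was at 4.43 and 9.35 FPKM (0.76 ± 0.94), the 1 member above 0. The citric acid cycle list had a median of -0.96 over 16 members, and ketone and branched-chain amino acid use -0.88 over 16. Mitochondrial ribosome and import genes had a median of -0.78, and all 52 were below 0, the nearest to it at -0.20. That member was above 0 without recentring or on genes above 10 FPKM. Glycolysis genes had a median of -0.24 over 13 members, which turned to above 0 without recentring or on genes above 10 FPKM. ENO3, the muscle enolase, was lower in the valve at 616 and 282 FPKM (-1.44 ± 0.74), and ALDOC, an aldolase of non-muscle cells, was higher at 2.37 and 10.3 FPKM (1.81 ± 0.87).

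All 19 mitochondrial chromosome rows with a ratio were lower in the valve, from -0.62 to -3.79 with a median of -2.49, and 12 were called lower. Of these rows, 15 span under 200 bases, and FPKM divides by length, so their values run very high: the highest row of the ventricle was at 416027 FPKM and the same row at 51335 in the valve. Between the DMVD groups 18 of the 19 were below 0. Mitochondrial genes with the HIDATA mark, such as COX3, had no ratio, so the 19 are not the whole mitochondrial chromosome. Cytosolic ribosomal proteins, made in every cell, had a median of -0.13 over 38 members with 0 called either way, and housekeeping genes had a median of -0.14 over 26. The sign of both medians changed under other recentrings.

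**Figure D4:**
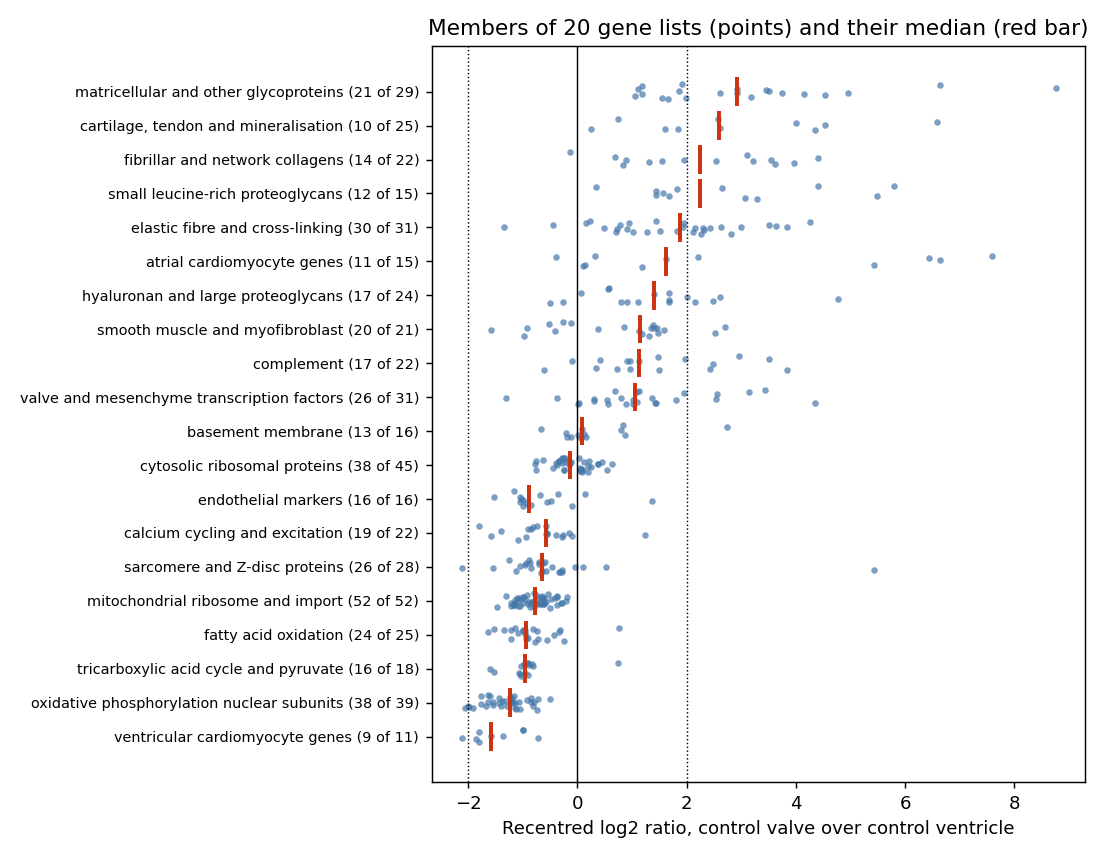
Recentred log2 ratio (horizontal) of each member with a ratio in 20 gene lists, 1 point per gene, with the median as a red bar and 4-fold as dotted lines; the numbers give members with a ratio of those matched. Lists of heart muscle and mitochondria have medians below 0 apart from the atrial list. The smooth muscle and myofibroblast list has a median of 1.15. Lists of the extracellular matrix have medians above 0, from 0.07 for the basement membrane to 2.91 for matricellular genes.

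Matricellular proteins and related glycoproteins signal between cells and matrix, and all 21 of that list with a ratio were at least 2-fold higher in the valve, against 11.7% of all genes. The median was 2.91 and 12 were called higher. POSTN, periostin, a matricellular protein of valves and healing tissue (chromosome 25, 3167202 to 3209414), had the highest ratio of the genes tested in both tables, at 0.453 FPKM in the ventricle and 245 in the valve (8.76 ± 2.70, a 434-fold difference). COMP, a cartilage and tendon glycoprotein, was at 0.746 and 92.8 FPKM (6.64 ± 0.85). THBS4, a thrombospondin of tendon and heart, was at 1.77 and 51.2 FPKM (4.54 ± 0.87). TNC, tenascin C, was at 0.14 and 5.39 FPKM (4.95 ± 1.20). SPARC, a collagen-binding protein whose locus is shared, was at 79.2 and 390.1 FPKM (1.99 ± 0.95). Members low in the ventricle had the highest ratios, while SPARC was already abundant there. In DMVD valve POSTN was at 685 FPKM and in DMVD ventricle at 5.63.

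Small leucine-rich proteoglycans bind collagen fibrils and set their spacing, and had a median of 2.24. Of 12 with a ratio, 11 were at least 2-fold higher in the valve, against 11.7% of all genes. FMOD, fibromodulin, was at 1.13 FPKM in the ventricle and 77.9 in the valve (5.79 ± 0.90). BGN, biglycan, was at 10.6 and 586 FPKM (5.48 ± 1.32), PRELP at 5.48 and 145 (4.41 ± 0.92) and LUM, lumican, at 73.6 and 575 (2.65 ± 1.39). DCN, decorin, had the highest level of the list in both tissues, at 274 and 1011 FPKM (1.57 ± 1.04). DCN and LUM were thus substantial in ventricle too, whereas FMOD and BGN were at 1.13 and 10.6 FPKM there. KERA and EPYC, best known from cornea and cartilage, were at 78.7 and 21.9 FPKM in the valve against 23.4 and 1.81 in the ventricle.

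Collagens followed. Fibrillar and network collagens had a median of 2.24 over 14 members with a ratio, 7 called higher and 0 lower. COL1A1, the main fibril chain, was at 4.82 FPKM in the ventricle and 127 in the valve (4.41 ± 1.15), and COL1A2 was at 13.6 and 265 FPKM (3.97 ± 1.34). COL5A2, which nucleates fibrils, was at 6.67 and 77.5 FPKM (3.22 ± 0.91). The cartilage chains COL11A2 and COL9A2 were at 0.73 and 11.1 FPKM (3.62 ± 1.13) and at 2.23 and 32.3 FPKM (3.54 ± 0.77). COL5A3 was level, at 5.57 and 6.26 FPKM (-0.15 ± 0.62). COL3A1 had no ratio: it was not tested in either table and is listed at 0.0809 and 0.455 FPKM at a shared locus. Basement membrane genes, which sheathe muscle and vessels, had a median of 0.07 over 13 members with 1 called: LAMC3, a laminin chain, at 1.56 and 12.9 FPKM (2.73 ± 0.74). COL4A1, the main basement membrane collagen chain, was at 21.2 and 24.2 FPKM (-0.12 ± 1.49). The medians of these lists thus differed, at 2.24 and 0.07, while COL5A3 and COL4A1, from either list, both had ratios near 0.

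Hyaluronan and large proteoglycans, which hold water in the spongiosa layer, had a median of 1.39 over 17 members, with 5 called higher. VCAN, versican, the large proteoglycan of valve (chromosome 3, 24127134 to 24239146), was at 2.17 and 74.3 FPKM (4.78 ± 1.23). CD44, a hyaluronan receptor, was at 5.03 and 38.3 FPKM (2.62 ± 0.71), and HAS2, a hyaluronan synthase whose locus is shared, at 0.438 and 3.04 FPKM (2.48 ± 0.75). Elastic fibre and cross-linking genes had a median of 1.88 over 30, with 13 called higher and 0 lower. MFAP4, a microfibril protein at a shared locus, was at 5.25 and 125 FPKM (4.26 ± 0.86), and LOX, the lysyl oxidase that cross-links collagen and elastin, at 0.867 and 15.5 FPKM (3.84 ± 0.69). PCOLCE, which enhances procollagen processing, was at 7.02 and 99.5 FPKM (3.51 ± 0.74). The 2 members below 0 were EMILIN2, an elastic fibre glycoprotein at a shared locus, at 6.29 and 3.06 FPKM (-1.35 ± 1.10), and TGM2, a cross-linking transglutaminase, at 86.5 and 78.3 FPKM (-0.46 ± 0.70). The machinery that folds and exports matrix also leaned to the valve, with a median of 0.79 over 24 and 3 called higher, among them FKBP10, a collagen chaperone, at 1.91 and 17.3 FPKM (2.86 ± 0.71).

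Proteases and their inhibitors were mixed. The list had a median of 0.84 over 21, with 7 members below 0. Of the 21, 5 were called higher and 0 lower, against 3.53% and 0.803% of all genes. TIMP2, an inhibitor of matrix metalloproteases, was at 10.8 FPKM in the ventricle and 68.9 in the valve (2.37 ± 0.65). RECK, a membrane-bound inhibitor, was at 0.451 and 2.62 FPKM (2.22 ± 0.72). ADAMTS7, a protease that cleaves COMP, was lower in the valve at 7.75 and 2.62 FPKM (-1.88 ± 0.71), and ADAMTS5, which cleaves aggrecan and versican, was at 1.11 and 0.604 FPKM (-1.20 ± 1.01). The proteases did not go 1 way: MMP1 was at 0.0866 FPKM in the ventricle and 9.2 in the valve and MMP3 at 0.0978 and 13.9, both tested in the valve only.

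**Figure D5:**
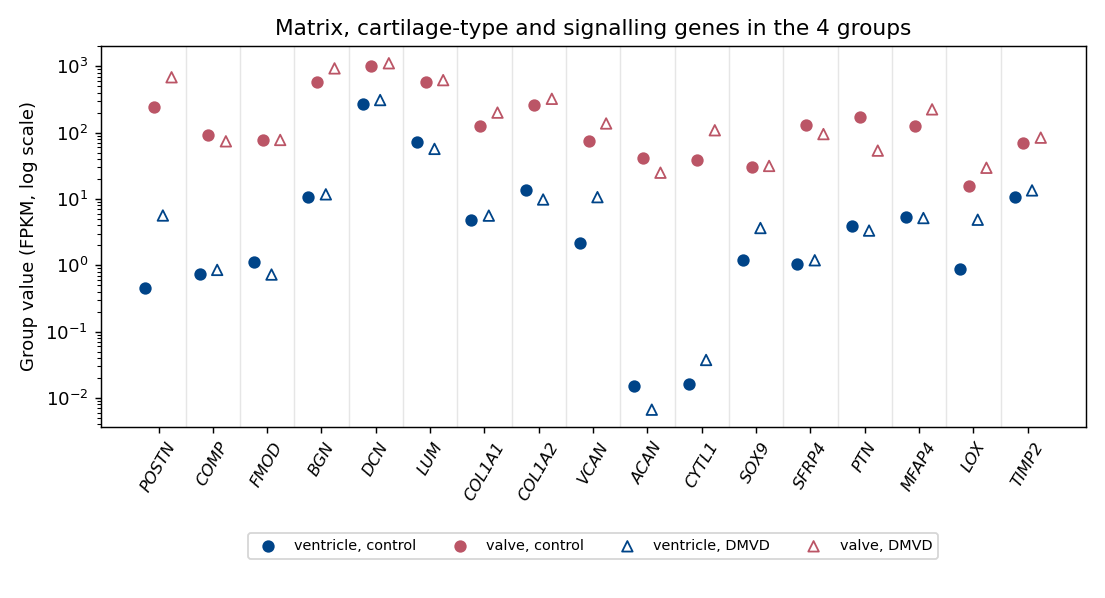
FPKM (vertical, log scale) of 17 matrix, cartilage-type and signalling genes in the 4 groups, 1 point per group: circles are control, triangles DMVD, blue ventricle and red valve. Every gene is higher in control valve than in control ventricle, from DCN at 1011 against 274 FPKM to ACAN at 41.5 against 0.0149.

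Genes of cartilage, tendon and mineralisation had a median of 2.59 over the 10 members with a ratio, 6 called higher. SCRG1, a small secreted protein of cartilage and mesenchymal cells, was at 1.16 FPKM in the ventricle and 139.6 in the valve (6.59 ± 1.99). SOX9, the master transcription factor of cartilage (chromosome 9, 8275049 to 8280390), was at 1.21 and 30.7 FPKM (4.35 ± 0.70). SPP1, osteopontin, was at 16 and 122 FPKM (2.61 ± 0.83). A further 11 members of this list were tested in the valve table and not in the ventricle table, and so had no ratio. They included ACAN, aggrecan (chromosome 3, 51995115 to 52032255), at 0.0149 and 41.5 FPKM, CYTL1 at 0.0161 and 38.9 FPKM, and CHAD, at a shared locus, at 0.145 and 20.8 FPKM. From the glycoprotein list, CLEC3A was likewise at 0.171 and 50.8 FPKM and MATN4, a matrilin at a shared locus, at 0.146 and 52.7 FPKM. Requiring a tested ventricle value thus left out many of the genes with the widest gap.

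That omission was general. A total of 1457 genes were tested in the valve and not in the ventricle, 140 of them at 5 FPKM or more in the valve, and 46 of those had a usable symbol. In the other direction 452 genes were tested in the ventricle only, 39 of them at 5 FPKM or more, and 0 of those had a usable symbol. The highest ventricle value among the 46 was 0.484 FPKM. Beside the cartilage genes they included MYBPC1, a slow-muscle myosin-binding protein at a shared locus, at 0.0434 FPKM in the ventricle and 92.4 in the valve. KCNJ3, the atrial channel subunit that slows the heart under vagal tone, was at 0.217 and 47.6 FPKM. HCN4, the pacemaker channel, was at 0.197 and 8.75 FPKM. GATA5, an endocardial and valve factor at a shared locus, was at 0.364 and 11.2 FPKM. In DMVD valve the same genes were at 79.8 (MYBPC1), 54.8 (KCNJ3), 12.1 (HCN4) and 11.1 FPKM (GATA5).

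Transcription factors of valve and mesenchyme had a median of 1.06 over 26, with 5 called higher and 0 lower. OSR1 was at 0.872 FPKM in the ventricle and 9.59 in the valve (3.14 ± 1.56), and FOXC2, a factor of valve and lymphatic development, at 0.376 and 2.74 FPKM (2.55 ± 1.02). TBX18, of the epicardial and sinus lineages and at a shared locus, was at 1.68 and 12.2 FPKM (2.54 ± 0.71). PRRX1, a mesenchymal factor, was at 19.7 and 65.6 FPKM (1.42 ± 1.29). Cardiac factors had a median of -0.14 over 21, of either sign depending on the recentring. TBX5, which favours atrial and left ventricular muscle, was at 9.52 and 36.5 FPKM (1.63 ± 0.67), and GATA4 at 6.6 and 17.6 FPKM (1.10 ± 0.61). HOPX was at 0.242 and 6.07 FPKM (4.33 ± 1.54). PPARA, a driver of fatty acid oxidation genes, was lower at 12.9 and 7.01 FPKM (-1.19 ± 0.71). HAND2 was near level, at 38.1 and 50.2 FPKM (0.09 ± 0.64).

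Among secreted signals, inhibitors of Wnt stood out by level. The Wnt list had a median of 0.74 over 20, with 5 called higher and 0 lower. SFRP4, a decoy receptor for Wnt, was at 1.04 FPKM in the ventricle and 132 in the valve (6.67 ± 0.92). FRZB, another decoy receptor, was at 3.51 and 70.1 FPKM (4.01 ± 0.84), WIF1 at 0.722 and 16 FPKM (4.16 ± 0.93) and DKK3 at 19.7 and 285 FPKM (3.54 ± 0.76). SFRP2, not tested in the ventricle, was at 0.0685 and 10.3 FPKM. FZD2, a Wnt receptor, was the remaining called member (2.95 ± 1.14), and FZD8 was lower at 8.16 and 4.08 FPKM (-1.32 ± 0.84). A Wnt ligand with a ratio, WNT11, was near level at 1.84 and 2.6 FPKM (0.19 ± 0.78).

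BMP and TGF-beta genes leaned to the valve. The BMP list had a median of 0.77 over 20 with 3 called higher: the ligand BMP2 at 0.57 and 4.93 FPKM (2.80 ± 0.72), the BMP antagonist CHRDL1 at 0.675 and 9.42 FPKM (3.49 ± 0.78) and the antagonist NBL1 at 11.9 and 70.1 FPKM (2.24 ± 0.71). A ligand and 2 antagonists of 1 pathway were thus higher together. The TGF-beta list had a median of 0.73 over 21 with 2 called higher, INHBA, an activin subunit, at 0.757 and 8.47 FPKM (3.17 ± 0.82), and TGFBI, a matrix target of the pathway at a shared locus, at 6.62 and 62 FPKM (2.91 ± 0.78). INHA, the inhibin subunit, was lower at 11.9 and 4.72 FPKM (-1.65 ± 0.89). Of the growth factors, FGF10 was at 0.568 and 6.16 FPKM (3.12 ± 0.83), and FGF13, an intracellular relative, at 10.4 and 4.83 FPKM (-1.42 ± 0.78). Notch genes included lower members, with the endothelial ligand DLL4 at 8.01 and 4.28 FPKM (-1.22 ± 0.68).

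Serotonin genes, of interest in valve disease, were mostly under the level tested, and 2 of 14 matched members had a ratio. MAOB, which degrades amines and sits at a shared locus, was at 1.57 FPKM in the ventricle and 27.2 in the valve (3.81 ± 0.73), and MAOA at 4.3 and 14.1 FPKM (1.40 ± 0.62). The receptor HTR4 was at 0.00342 and 2.17 FPKM, tested in the valve only. SLC6A4, the serotonin transporter, was at 0 and 0.03 FPKM and tested in neither. Adrenergic and muscarinic genes had a median of -0.59 over 6 with 0 called; CHRM2, the vagal receptor of heart, was at 10.8 and 17.3 FPKM (0.36 ± 0.73), and ADRB1 at 12.9 and 9.88 FPKM (-0.70 ± 0.71).

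Markers of other cell types were read in both tissues. Fibroblast and valve interstitial cell markers had a median of 1.80, with all 10 above 0 and 5 called, and their summed level was 407 FPKM in the ventricle and 1991 in the valve. DCN and LUM, also counted above as small proteoglycans, made up most of both sums. THY1 was at 2.73 and 33.3 FPKM (3.30 ± 0.72). Endothelial markers had a median of -0.90, 14 of 16 below 0 and 0 called, with sums of 214 and 164 FPKM. CDH5, the endothelial cadherin, was at 14.6 and 9.11 FPKM (-0.99 ± 0.71), and FLT1, a receptor for vascular growth factor at a shared locus, at 11 and 4.78 FPKM (-1.52 ± 0.69). TCF15, a factor of fat-handling heart capillaries, was at 12.7 and 5.06 FPKM (-1.64 ± 0.87). Pericyte markers were level by sum, at 121.5 and 123 FPKM.

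Smooth muscle and myofibroblast genes had a median of 1.15 over 20, with 2 called higher, 0 lower and 7 members below 0. TAGLN, a smooth muscle actin-binding protein, was at 86.9 and 699 FPKM (2.69 ± 0.89), and TPM2, the beta tropomyosin, at 18.8 and 134 FPKM (2.52 ± 0.72). ACTA2, smooth muscle actin, was at 14.1 and 31.6 FPKM (0.85 ± 0.69), and MYH11, the smooth muscle myosin at a shared locus, at 4.4 and 7.13 FPKM (0.38 ± 0.76). MYH11 thus had the lowest ratio of these 4 genes. The lowest ratio of the 20 was that of PLN, also a member of the ventricular list, at -1.59.

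Adipocyte markers had a median of 1.70, with all 7 above 0, and summed to 27.1 FPKM in the ventricle and 99.5 in the valve. PLIN1, the fat droplet coat protein, was at 5.44 and 24.8 FPKM (1.87 ± 0.99), and at 5.64 FPKM in DMVD valve. Schwann cell and neuron markers had a median of 1.17 over 12, with sums of 72.1 and 211 FPKM. Fat and nerve markers were therefore among the lists that moved with the valve. Their part in the other differences was not tested.

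T and NK cell markers were sparse. No T and NK cell marker of 11 reached 1 FPKM in the valve and 2 did in the ventricle, with 3 of the 11 listed at 0 in the valve. Macrophage markers summed to 59.9 and 133 FPKM with a median of 0.74 and 0 called; C1QA, a complement subunit of macrophages, was at 8.51 and 23 FPKM (1.12 ± 0.70) and CD163 at 4.19 and 5.2 FPKM (0.00 ± 0.75). Antigen presentation genes had a median of 0.14 over 8 with 0 called, and summed to 880 and 848 FPKM. Neutrophil markers had a median of -1.94 over 4, with 2 called lower, and summed to 14.2 FPKM in the ventricle and 8.65 in the valve, against 378 and 43.6 in the DMVD tissues. Erythroid markers had a median of -1.15 over 3 and summed to 62.9 and 36 FPKM, against 3606 and 608 in the DMVD tissues. Their part in the comparisons with DMVD was not tested. Mast cell markers had a median of -0.80 over 5, with 1 called higher and 1 lower. They summed to 24.5 FPKM in the ventricle and 22.6 in the valve. The mast cell protease CPA3, without a ratio, was at 2.98 FPKM in the ventricle and 0.172 in the valve, tested in the ventricle only. Complement genes had a median of 1.12 over 17, with 5 called higher and 0 lower. CLU, clusterin, was at 38.6 and 687 FPKM (3.84 ± 1.23), SERPING1, the inhibitor of the first complement component, at 14.6 and 142 FPKM (2.97 ± 0.70), and C1S, a protease of that component, at 10 and 67.2 FPKM (2.43 ± 0.70). The protease and its inhibitor were higher together. IL33, an alarmin of stromal cells, was at 4.36 and 83.8 FPKM (3.95 ± 0.96). Melanocyte markers were low, with sums of 5.18 FPKM in the ventricle and 6.21 in the valve. Of 6 matched, 2 reached 1 FPKM in the ventricle and 1 in the valve. DCT was listed at 0 in both tissues and TYR at 0 in the valve.

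Early response genes, which many stimuli induce quickly, had a median of 0.88 over 24, with 22 above 0 and 3 called higher. CTGF was at 10.6 and 119 FPKM (3.18 ± 0.81), EGR1 at 4.75 and 35.1 FPKM (2.57 ± 0.80) and FOSB at 0.507 and 3.56 FPKM (2.49 ± 1.01). In DMVD ventricle and valve EGR1 was at 25 and 36.2 FPKM, so the gap seen between control tissues was small there. Interferon response genes had a median of 0.86 over 21 with 1 called higher, against 3.53% of all genes. The called member was IFI6, at 1.61 and 62.7 FPKM (4.97 ± 0.91). The next member on an unshared locus, DHX58, was at 1.24 and 3.81 FPKM (1.31 ± 0.84), so IFI6 stood well apart from its list.

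Of the remaining genes with the highest ratios, several encode secreted proteins. MYOC, myocilin, was at 1.1 and 50 FPKM (5.20 ± 0.74), TF, the iron carrier transferrin, at 2.4 and 108 FPKM (5.18 ± 0.92), and PTN, the growth factor pleiotrophin, at 3.87 and 170.0 FPKM (5.14 ± 1.22). SERPINE2, a protease inhibitor, was at 2.25 and 97.7 FPKM (5.13 ± 0.91), and FIBIN at 4.08 and 158 FPKM (4.96 ± 0.78). CRABP2, a retinoic acid carrier, was at 0.74 and 28.6 FPKM (4.96 ± 1.04). In DMVD valve PTN was at 53.6 FPKM and SERPINE2 at 231, so they differed from control valve in opposite directions.

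The genes with the lowest ratios were fewer and less alike. SPINK4, a protease inhibitor best known from gut (chromosome 11, 50340145 to 50345679), was at 17.4 FPKM in the ventricle and 0.332 in the valve (-6.02 ± 3.24). PCP2, best known from Purkinje neurons, was at 49.4 and 2.8 FPKM (-4.45 ± 1.79), and was at 1.02 FPKM in DMVD ventricle. FHIT, a nucleotide hydrolase, was at 44.4 and 3.96 FPKM (-3.80 ± 2.51), and in the DMVD groups was level at 25.1 and 24.3 FPKM. Without values per dog, it cannot be seen whether PCP2 and FHIT were high in each control ventricle. USMG5, a small ATP synthase subunit, was at 7862 and 1648 FPKM (-2.57 ± 0.71), and NDUFA11, of complex I, at 1210.4 and 361 FPKM (-2.06 ± 0.69). PPP1R1C, a phosphatase inhibitor, was at 94.8 and 20 FPKM (-2.56 ± 1.85).

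The DMVD groups, from other dogs, were read at the same genes. Of the 451 valve-high genes with a DMVD ratio, 417 were above 0 there and 311 reached 4-fold again, and 5 reached 4-fold the other way. Of the 100 valve-low genes with one, 79 were below 0, 47 reached 4-fold again and 7 reached it the other way. Over all 13186 genes with a DMVD ratio, 6.14% reached 4-fold higher and 2.68% lower. The 20 named genes of highest ratio were all above 0 in DMVD and the 20 of lowest ratio all below 0. List medians between the DMVD groups were -2.02 for oxidative phosphorylation, -1.15 for the sarcomere, 3.07 for collagens, 2.96 for small proteoglycans and 2.53 for matricellular genes. Not every list kept its size: cartilage, tendon and mineralisation genes stood at 1.59 against 2.59 between the control groups, early response genes at 0.16 against 0.88 and cytosolic ribosomal proteins at -0.76 against -0.13. VCAN was at 10.7 and 138 FPKM in DMVD ventricle and valve, SOX9 at 3.65 and 31.5, and FMOD at 0.724 and 77.7.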

How the data were processed

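RNA sequencing values of control valve (3 libraries) and control ventricle (4 libraries) were compared. Per the labels' protocols, RNA was extracted with a fibrous tissue kit, made into TruSeq libraries and sequenced on a HiSeq instrument. Cutadapt, Bowtie, TopHat and the build CanFam3.1 appear in the submitters' processing notes, without versions. The program behind these FPKM was not named in any label or header read here. Each tissue has 1 table that the authors deposited; per the file headers it holds 1 value per group, read as FPKM, already normalised within that table. The authors' deposited log2 fold change (DMVD against control) was recomputed because it holds placeholders at 0. The authors' deposited test statistic, a score, matches their deposited p-value as a two-sided normal p, to within 2.84e-06. The log2 change over that score gave the authors' model error in each table, and the root of the summed squares of both is the error ceiling, a bound on 1 standard error. It was undefined for 104 genes.

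Genes were joined by identifier, kept at status OK in both tables, and recentred as stated; no pseudocount was used. The ratio and its recentring were run on simulated group values with planted changes. That checks the calculation and not how reliable a call is in these data. The depth per library is unknown. Symbols came from the tables: 14649 as they stand, plus 77 translated UniProt names; 6516 genes share a listed locus, where reads may be split. Positions are CanFam3.1, counted from 1. The 58 lists held 1375 genes, of which 1078 matched; TWIST1, HTR2B, MYH6, MYL2 and MYL7 did not match by symbol and are not analysed here. The comparison, the members and the lists were chosen with earlier results of these data known. Named genes were the 20 highest and 20 lowest ratios (symbol, unshared locus, 5 FPKM), the 15 highest FPKM per tissue, up to 6 members per list by FPKM and 4 per direction by ratio, any factor, ligand or receptor of a list, and a fixed set. A few others, named for contrast, were chosen after their values were seen: CHAD, CLEC3A, COL3A1, COX3, HCN4, MATN4, MMP1, MYBPC3 and MYH11. Alternatives changed the recentring, pseudocount, low-value filter, status filter, shared loci and fold. The computing used pandas 2.3.3 and numpy 2.4.6 in Python 3.11.15, with figures from matplotlib 3.10.9 and normal probabilities from scipy 1.17.1.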

Additional observations from a re-analysis of the deposited data

How the results depend on the processing

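The counts of genes at least 4-fold apart moved with the fold, the status filter, low values and the recentring. Without the status filter they were 1541 higher and 385 lower in the valve, against 466 and 106. Above 1 FPKM in both tissues they were 257 and 62, with a pseudocount of 1 FPKM 248 and 50, and the count lower was 67 with 5 FPKM in 1 tissue or both. Recentring moved the lower count to 55 with none (670 higher) and to 61 on genes above 10 FPKM (620 higher). At 2-fold the counts were 1547 and 936, at 8-fold 170 and 26. Higher calls outnumbered lower ones in each of these settings. Without recentring every ratio moved up by 0.31; recentred on genes above 5 or 10 FPKM, ribosomal proteins or housekeeping genes, by 0.15, 0.24, 0.13 and 0.14. Of 58 lists, 46 kept their sign in all 12 alternatives. Each other recentring moved every ratio up, so it could not change the sign of a median above 0. Of the 21 lists with a median of 1 or more in size, 19 did. The exceptions rest on few members: the T and NK cell median (-1.34) was 0.59 without the status filter, and the mesothelial median (-1.31) was 0.82 there, 0.17 at 1 FPKM in 1 tissue and 2.54 above 1 FPKM in both or at 5 FPKM in 1. Of the named genes reported at 4-fold or more, all but FZD2 were carried through the alternatives. None of those carried through changed sign in the alternatives that gave it a value. Recentring moved ratios by at most 0.31 and the filters left them as they were. A 4-fold ratio could thus change sign only through a pseudocount, so this outcome was largely fixed in advance. Leaving out a dog was not possible. No paired analysis was possible because the tables hold 1 value per group.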
